A study of Drosophila melanogaster with 7 samples.

Results

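The 16 rows described here are the members with the most reads of a large class of fly genes whose names begin with CR. FlyBase uses that prefix for genes without a protein product, such as noncoding RNAs and pseudogenes, where CG marks a predicted protein-coding gene. The rows were chosen by measured reads: all rows whose name is CR followed by digits and whose total gene reads, summed over the 7 libraries, reached 1000. This kept 16 of 2606 CR rows, out of 17697 named rows in the tables. The read sum chose the members, so their overall abundance is a description. A row high in 1 group only can reach that sum through that group, which was the case for 3 members named below.

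Long noncoding RNAs are transcripts without a long reading frame. Many are capped, spliced and polyadenylated like messenger RNAs, and some are processed into microRNAs or overlap coding genes in antisense. A pseudogene is a copy of a gene that has lost its coding capacity, and its RNA, where one is made, can resemble that of its relatives closely enough for reads to match both. Libraries made by poly(A) selection, as here, keep those noncoding RNAs that carry a tail.

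The samples were tracheae, the branched air tubes of the fly, taken from Drosophila melanogaster at the third larval instar. 3 libraries were from animals with ectopic expression of Hop.CA, a form of the JAK kinase Hopscotch used here to raise JAK/STAT signalling, and 4 from animals that the titles call wildtype control. The labels give all 7 the same strain, with btl-Gal4 as the tracheal driver, UAS-GFP and UAS-Hop.CA as the driven transgenes, and tub-Gal80ts as the temperature-sensitive repressor of Gal4. By that label the controls carry the transgene too. Hop.CA animals grew at 18 °C and were moved at the second larval stage to 29 °C for 18 hours before sampling, while control animals stayed at 18 °C. Transgene expression and temperature thus changed together and cannot be told apart. The labels state neither the age within the instar nor how many animals went into a library, and they call the replicates biological.

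Depth and makeup were checked over the whole tables. Gene reads numbered 18618125 to 19597298 in the Hop.CA libraries and 16795748 to 20455268 in the control libraries. hop itself, the targeted gene, stood at 1342 to 1593 CPM (counts scaled to 1e+06 reads of the TMM-normalised library size) in Hop.CA and at 38.4 to 44.03 CPM in control. All 12 tracheal epithelium markers were detected, and 3 rose and 2 fell by the test used below. Their summed level was 17199 to 17858 CPM in Hop.CA and 12279 to 13248 CPM in control. Most of that sum came from serp and verm, which both rose. serp was at 5204 to 5508 CPM in Hop.CA and 3017 to 3397 CPM in control. verm was at 8463 to 9060 CPM in Hop.CA and 5592 to 6226 CPM in control. The median log2 fold change of the 12, Hop.CA over control, was -0.0026. Other tissues were present too. The 12 muscle markers summed to 3103 to 9536 CPM in Hop.CA and 9122 to 19339 CPM in control, with 7 lower in Hop.CA and none higher. The 9 imaginal disc markers summed to 159.6 to 212 CPM in Hop.CA and 228 to 331 CPM in control, with 5 lower and none higher. Most of that sum came from ci, which did not pass. ci was at 144 to 187 CPM in Hop.CA and 177 to 243 CPM in control. The median log2 fold change of the 9 disc markers was -1.46. The 6 ring gland markers summed to 29.4 to 43.4 CPM in Hop.CA and 34.8 to 132 CPM in control, the highest value being in control replicate 2, with 1 lower. No haemocyte or fat body marker passed the test. Of the 7 genes in the neuron list only Syb was higher, at 250 to 271 CPM in Hop.CA and 192 to 220 CPM in control. The rest of that list did not pass and reached at most 18.5 CPM (elav in control replicate 4). The 1 germline or testis marker tested of 6 was lower, and no marker of any list lacked reads in all libraries. In these bulk samples fewer cells of a type and less RNA per cell cannot be told apart, and the part of such tissues in the results below was not tested.

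Almost all CR rows had few or no reads in these poly(A) libraries, which does not show that the genes are not transcribed. Of the 2606, 1722 had no read in any library, 775 had 1 to 99 reads over the 7 libraries, 93 had at least 100 but under 1000, and 16 passed. Just inside the threshold were CR43957, CR43242 and CR46006 with 1628, 1420 and 1031 reads. Just outside were CR45473, CR42653 and CR43670 with 986, 923 and 866 reads. Of the 16 members, the annotation classes 11 as noncoding RNA and 5 as pseudogenes, against 2314 and 234 of all CR rows, with 58 CR rows not matched by name and position.

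The way these rows were counted sets what can be read from them. All 2606 CR rows have no exon in the deposited tables, so every read of a member is listed as an intron read and none as an exon or exon-exon read. The deposited RPKM and TPM, which rest on exon length, therefore list all 16 members at 0 in all 7 tables, while CR42862 alone had 265252 reads over the 7 libraries. In the annotation used here the members do have exons, between 1 and 5 blocks each. The members alone made up 3.42% to 5.17% of all intron reads in the Hop.CA libraries and 4.87% to 7.7% in the control libraries.

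Members' reads were 0.219% to 0.276% of all gene reads in the Hop.CA libraries and 0.291% to 0.553% in the control libraries, so the groups did not overlap. CR42862 and CR30029 carried most of them. CR42862 alone took 0.184% to 0.231% of gene reads in Hop.CA and 0.14% to 0.224% in control, overlapping ranges. CR30029 took 0.00749% to 0.0245% in Hop.CA and 0.082% to 0.297% in control. The other 14 members together took 0.022% to 0.0242% in Hop.CA and 0.0221% to 0.0311% in control. The lower summed share in Hop.CA thus followed CR30029.

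**Figure D1:**
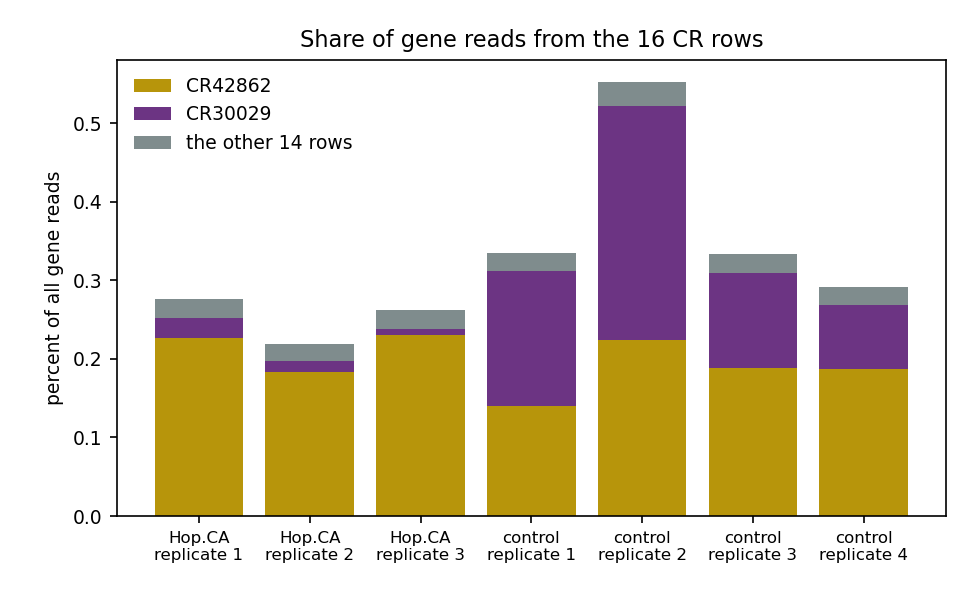
Percent of all gene reads (vertical axis) that fell in the 16 CR rows in each library, with the Hop.CA libraries on the left and the control libraries on the right, split by row. CR42862 takes 0.14% to 0.231% in every library, while CR30029 is at or under 0.0245% in the 3 Hop.CA libraries and at or over 0.082% in the 4 control libraries.

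All 16 members passed the filter on low counts and were tested in a fit over all 9457 rows that passed it. 10 of 16 (62.5%) changed at an adjusted p under 0.05 in edgeR's quasi-likelihood test, against 31.5% of all rows tested. 4 were higher in Hop.CA, against 16.4% of all rows tested, and 6 were lower, against 15.1%. The median log2 fold change of the members, Hop.CA over control, was 0.10, against -0.01 over all rows tested. The Hop.CA and control libraries did not overlap for the same 10 members, against 43.3% of all rows tested. Of these, 4 lay wholly above the controls, against 23.3% of all rows tested, and 6 wholly below, against 20% of all rows tested. For 13 of the 16 the mean was above the 143 reads per library that the threshold amounts to in both groups, and of these 2 were higher and 5 lower. CR31958 and CR43242 reached that mean in Hop.CA only and CR46006 in control only, so these 3 passed the threshold through the group where they were high. Control replicate 2 and Hop.CA replicate 1 deviated from their group means most alike of all cross-group pairs (correlation 0.471 over all rows tested). Without these 2 libraries together, 4 members were higher and 3 lower, and 1573 of all 9565 rows tested were called. Of the 144 other CR rows tested, which had fewer reads, 28 were higher and 14 lower (29.2% called), with a median log2 fold change of 0.05.

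**Figure D2:**
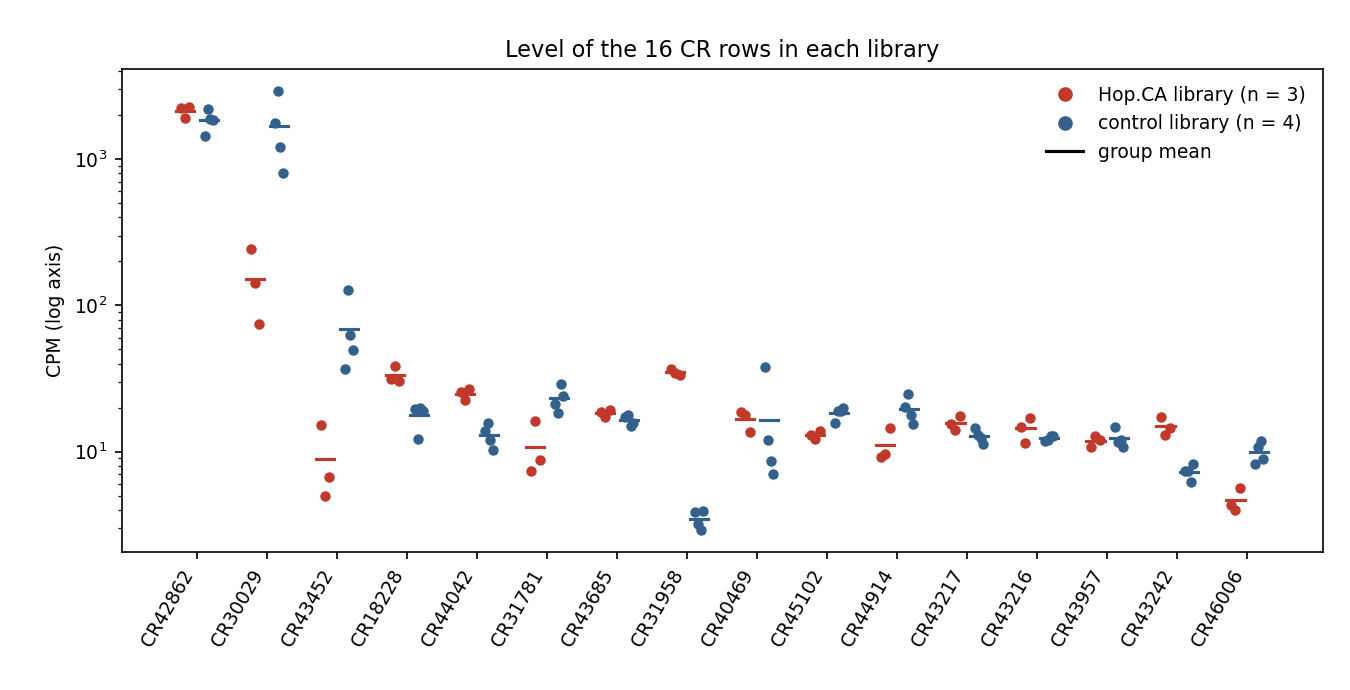
CPM on a log axis of each of the 16 CR rows (horizontal axis, ordered by reads summed over the libraries) in every library, with Hop.CA libraries as red points on the left of each pair and control libraries as blue points on the right; lines mark group means. CR31958 is at 33.7 to 36.7 CPM in Hop.CA and 2.92 to 3.94 CPM in control, and CR30029 at 74.1 to 242 CPM in Hop.CA and 805 to 2916 CPM in control.

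Among the 5 pseudogenes, 2 were higher, 1 was lower and 2 did not pass, where 16.4% of all rows tested were higher and 15.1% lower. CR31958 (2L, 3785738 to 3786343, plus strand, dm6), a single-exon pseudogene, rose most of the 16. It stood at 36.7, 34.6 and 33.7 CPM in Hop.CA replicates 1 to 3 and at 3.86, 3.21, 2.92 and 3.94 CPM in control replicates 1 to 4. Every Hop.CA library was thus far above every control library, with little spread within either group. The log2 fold change was 3.32 ± 0.118 (SE, adjusted p = 7.51e-06).

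The coding gene CG31960 ends 115 bp before CR31958 on the same strand, and the RefSeq gene table lists the older name CG10022 for both. CG31960 was at 184, 173 and 177 CPM in Hop.CA and 18.7, 15.5, 16.1 and 20.2 CPM in control, a log2 fold change of 3.33 ± 0.106 (adjusted p = 4.17e-06). Reads of CR31958 per read of CG31960 were 0.19 to 0.2002 in the Hop.CA libraries and 0.181 to 0.207 in the control libraries, so the pair kept nearly the same ratio while both differed about 10-fold between the groups. All reads of CR31958 are listed as unique. On the other side, bark, which encodes a scavenger receptor-like protein of cell junctions and starts 823 bp away, was at 69.7 ± 3.75 CPM in Hop.CA and 67.3 ± 12.5 CPM in control (SD, n = 3 and n = 4) and did not pass (adjusted p = 0.822).

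CR30029 (2R, 11246105 to 11246654, plus strand), also a pseudogene, fell most of the 16 and is the second most abundant of them. It had 242, 141 and 74.1 CPM in Hop.CA replicates 1 to 3, against 1764, 2916, 1211 and 805 CPM in control replicates 1 to 4. The groups did not overlap, though each spanned more than 3-fold within itself, with control replicate 2 the highest. The log2 fold change was -3.46 ± 0.60 (SE, adjusted p = 0.00653). Control replicate 2 is also the library with the highest ring gland sum and the lowest muscle sum of the controls.

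The coding gene CG34227 starts 1471 bp downstream of CR30029 on the same strand and was of like abundance. It had 666, 375 and 115 CPM in Hop.CA, against 1619, 2978, 1019 and 551 CPM in control. Its groups overlapped, and its log2 fold change of -2.00 ± 0.75 did not pass (adjusted p = 0.0819). Within each group the libraries fell in the same order for both genes, highest in replicate 1 of Hop.CA and in replicate 2 of control. Reads of CR30029 per read of CG34227 were 0.363, 0.377 and 0.644 in Hop.CA and 1.09, 0.979, 1.19 and 1.46 in control, so CR30029 was further down than its neighbour in every Hop.CA library. CG34225, which ends 109 bp upstream, had no read in Hop.CA and at most 0.336 CPM in control.

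**Figure D3:**
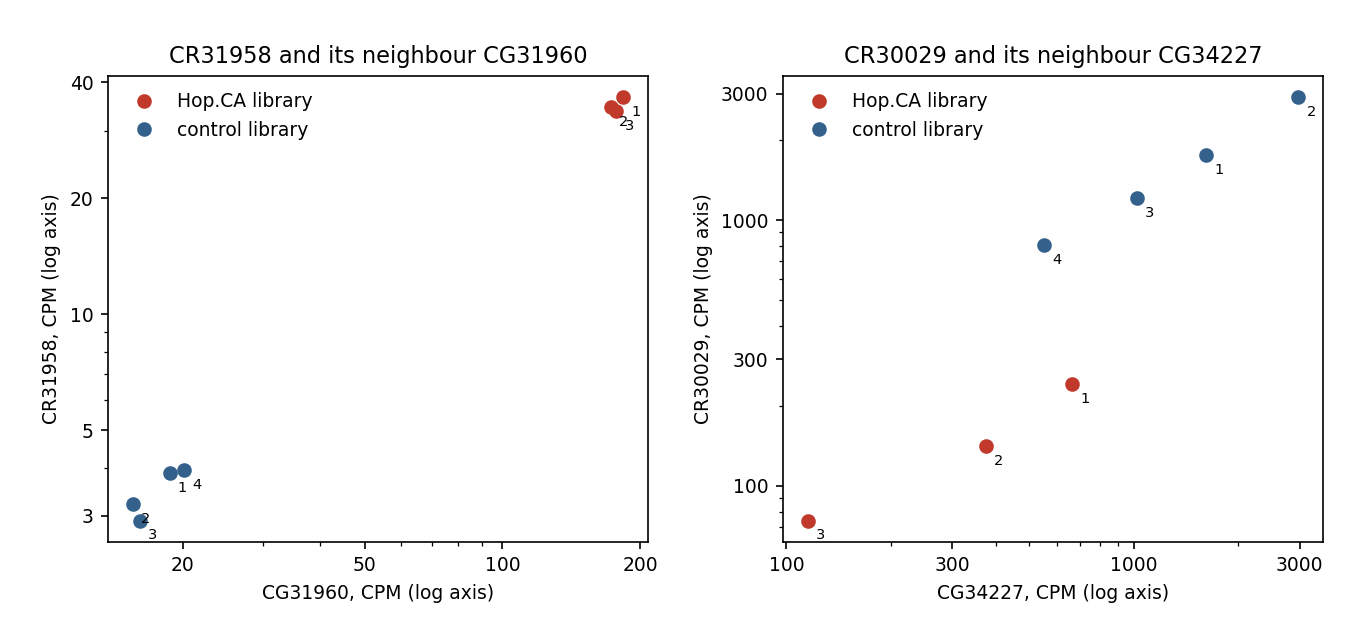
CPM of CR31958 against its neighbour CG31960 (left) and of CR30029 against its neighbour CG34227 (right), both axes log, 1 point per library with its replicate number, Hop.CA in red and control in blue. On the left the Hop.CA libraries lie at 33.7 to 36.7 CPM and the controls at 2.92 to 3.94 CPM at ratios of 0.181 to 0.207; on the right the ratios are 0.363 to 0.644 in Hop.CA and 0.979 to 1.46 in control.

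CR18228 (3R, 8260706 to 8261898, minus strand), another pseudogene, was at 31.5, 38.4 and 30.6 CPM in Hop.CA and at 19.5, 12.2, 19.9 and 19.1 CPM in control. All Hop.CA libraries lay above all controls, and control replicate 2 was the lowest. It rose by a log2 fold change of 0.92 ± 0.176 (adjusted p = 0.0074). It overlaps mtg, a gene of a secreted chitin-binding protein on the opposite strand, by 13 bp only. mtg had a log2 fold change of -0.44 ± 0.166 (adjusted p = 0.0785). RpA-70, a subunit of the single-strand DNA-binding replication protein A that lies 221 bp away on the same strand, fell (log2 fold change -0.32 ± 0.083, adjusted p = 0.0233), opposite to CR18228.

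The pseudogenes CR43217 (X, 11586228 to 11586944) and CR43216 (X, 11587283 to 11589173) lie 338 bp apart on the plus strand and differ from the other members in having no uniquely assigned read at all. CR43216 is the first of 6 adjoining rows on X of exactly 1891 bp each, and the other 5 held 207 reads together, 2 of them none. The labels do not say how reads matching several copies were shared, so the levels of both are uncertain. CR43217 stood at 15.7 ± 1.75 CPM in Hop.CA and 12.8 ± 1.31 CPM in control, with a log2 fold change of 0.29 ± 0.116 that did not pass (adjusted p = 0.0907). CR43216 stood at 14.4 ± 2.83 CPM in Hop.CA and 12.3 ± 0.524 CPM in control, with a log2 fold change of 0.23 ± 0.135 that did not pass (adjusted p = 0.229). For CR43216 the value was 0.37 without Hop.CA replicate 2, which passed (adjusted p = 0.0427), and 0.097 without Hop.CA replicate 3 (adjusted p = 0.642). The libraries of the groups overlapped for both.

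Among the 11 noncoding RNAs, 2 were higher, 5 lower and 4 did not pass, where 16.4% of all rows tested were higher and 15.1% lower. CR42862 (3L, 224106 to 230964, plus strand) is by far the most abundant, in place 54 of all 17697 rows by reads. It had 2234, 1906 and 2283 CPM in Hop.CA and 1440.0, 2202, 1879 and 1835 CPM in control. The groups overlapped, and the log2 fold change of 0.22 ± 0.145 did not pass (adjusted p = 0.28). Per kilobase of gene span, its level was 312 CPM in Hop.CA and 268 CPM in control. On that scale it was the highest member in Hop.CA, just above CR30029 at 277 CPM, while in control CR30029 at 3044 CPM was above it. CR40469 came next in Hop.CA, at 78.2 CPM per kilobase, and was at 76.4 CPM in control, where CR43452 at 77.2 CPM was level with it.

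CG33229, a coding gene, overlaps the first 1500 bp of CR42862 on the same strand, so reads in that stretch cannot be assigned with certainty. It was at 58.3 ± 6.82 CPM in Hop.CA and 48.5 ± 8.92 CPM in control, with a log2 fold change of 0.26 ± 0.158 that did not pass (adjusted p = 0.234). Reads of CR42862 outnumbered its reads 34.6 to 39.7 times in Hop.CA and 33.6 to 43.8 times in control. pyx, a TRP channel gene 1036 bp away at the same end, did not pass either (adjusted p = 0.156), nor did CG42846, 6 bp away at the other end (adjusted p = 0.827).

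CR44042 and CR43242 were the noncoding RNAs that rose. CR44042 (2R, 1348167 to 1349167, minus strand) was at 25.5, 22.5 and 26.8 CPM in Hop.CA and at 13.8, 15.6, 12.1 and 10.3 CPM in control. Its groups did not overlap, with a log2 fold change of 0.95 ± 0.145 (adjusted p = 0.0031). l(2)41Ab, which starts 224 bp away on the opposite strand, also rose, with 56.0 ± 7.03 CPM in Hop.CA and 30.8 ± 7.85 CPM in control (log2 fold change 0.86 ± 0.211, adjusted p = 0.0194). The gene on its other side, Yeti, did not pass (adjusted p = 0.863).

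CR43242 (2L, 23069005 to 23070724, plus strand) was at 17.2, 12.96 and 14.4 CPM in Hop.CA and at 7.41, 7.39, 6.19 and 8.26 CPM in control. The lowest Hop.CA library was above the highest control, and the log2 fold change was 1.02 ± 0.138 (adjusted p = 0.00192). Its neighbours on both sides went the other way. Spf45, a splicing factor gene 618 bp away, fell (log2 fold change -0.32 ± 0.0894, adjusted p = 0.029), as did CG12567, 90397 bp away (log2 fold change -0.26 ± 0.0765, adjusted p = 0.0351).

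CR43452 (3R, 20678183 to 20679079, plus strand), a single-exon noncoding RNA, fell most among the 11. It had 15.2, 4.96 and 6.67 CPM in Hop.CA, against 36.9, 127, 62.9 and 49.8 CPM in control. Control replicate 2 was the highest library here as it was for CR30029, and replicate 1 the highest of Hop.CA. The log2 fold change was -2.95 ± 0.58 (adjusted p = 0.01). Oamb, an octopamine receptor gene 9938 bp away on the opposite strand, fell as well, with 1.2 ± 0.167 CPM in Hop.CA and 4.94 ± 2.07 CPM in control (log2 fold change -2.03 ± 0.399, adjusted p = 0.00805). Unlike CR43452, Oamb was lowest of the controls in replicate 2, at 2.3 CPM.

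CR46006 (3L, 10323501 to 10367450, plus strand) is the longest member, at 43950 bp, and spans mir-276a, a conserved microRNA; the RefSeq gene table lists a primary transcript name of that microRNA among its synonyms. It had 4.34, 4.0 and 5.61 CPM in Hop.CA, against 8.26, 10.8, 11.9 and 8.94 CPM in control. The groups did not overlap, and the log2 fold change was -1.10 ± 0.184 (adjusted p = 0.00447). Per kilobase of gene span it was the lowest member, at 0.106 CPM in Hop.CA and 0.227 CPM in control. The row of mir-276a itself had no read in any library, and poly(A) libraries do not measure mature microRNAs, so the microRNA's level was not analysed here.

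CR31781 (2L, 16869346 to 16878300, plus strand) had 7.41, 16.2 and 8.79 CPM in Hop.CA, against 21.3, 18.3, 28.9 and 24.1 CPM in control. Hop.CA replicate 2 came close to the lowest control. The log2 fold change was -1.10 ± 0.288 (adjusted p = 0.0251). This call was lost without control replicate 3 or 4 (adjusted p 0.0537 and 0.0555) and without Hop.CA replicate 1 or 3 (0.0741 and 0.094). Neither neighbouring row, CR43858 and CG32832, had enough reads to be tested.

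CR44914 (2L, 6872714 to 6874378, plus strand) had 9.15, 9.71 and 14.5 CPM in Hop.CA, against 20.2, 24.9, 17.7 and 15.6 CPM in control. The highest Hop.CA library was just under the lowest control. It fell by 0.82 on the log2 scale (SE 0.213, adjusted p = 0.0235), a call lost without Hop.CA replicate 1 or 2 (adjusted p 0.0857 and 0.0763). Nlg2, a neuroligin gene that starts 521 bp downstream on the same strand, fell too, with 1.48 ± 0.311 CPM in Hop.CA and 4.06 ± 1.26 CPM in control (log2 fold change -1.45 ± 0.329, adjusted p = 0.0138).

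CR45102 (X, 3701857 to 3703285, plus strand) had the smallest log2 fold change among the 10 called members. It stood at 12.9, 12.2 and 13.8 CPM in Hop.CA and at 15.8, 18.9, 18.9 and 19.8 CPM in control, with no overlap. The log2 fold change was -0.50 ± 0.103 (adjusted p = 0.00961). It begins 184 bp after Mnt, a bHLH transcriptional repressor of the Myc network, on the same strand. Mnt was at 12.5, 17.3 and 17.6 CPM in Hop.CA and at 5.96, 19.2, 19.99 and 22.9 CPM in control, and did not pass (adjusted p = 0.869). Rala, a small GTPase gene on the other side, fell (log2 fold change -0.29 ± 0.0732, adjusted p = 0.021).

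The other 3 noncoding RNAs, like CR42862, did not pass. CR43685 (3R, 7092347 to 7093707, minus strand) was at 18.4 ± 1.06 CPM in Hop.CA and 16.4 ± 1.28 CPM in control (log2 fold change 0.16 ± 0.0898, adjusted p = 0.208). CR43957 (4, 56497 to 63124, plus strand), annotated as an antisense RNA, overlaps ci, the transcription factor of the Hedgehog pathway, by 545 bp. It was at 11.9 ± 1.04 CPM in Hop.CA and 12.4 ± 1.76 CPM in control (log2 fold change -0.06 ± 0.13, adjusted p = 0.767), while ci was at 169 ± 22.1 CPM in Hop.CA and 209 ± 27.2 CPM in control (log2 fold change -0.31 ± 0.131, adjusted p = 0.105). Whether strand was used in counting is not stated, so reads in the shared stretch cannot be told apart.

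CR40469 (X, 122493 to 122706, plus strand), the shortest member at 214 bp, was the least even. It had 18.7, 17.8 and 13.7 CPM in Hop.CA and 37.7, 11.99, 8.69 and 7.05 CPM in control. Control replicate 1 alone stood above all Hop.CA libraries, and the other 3 controls stood below them. With all libraries the log2 fold change was 0.03 ± 0.581 (adjusted p = 0.972), and without control replicate 1 it was 0.84 with an adjusted p of 0.0283.

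**Figure D4:**
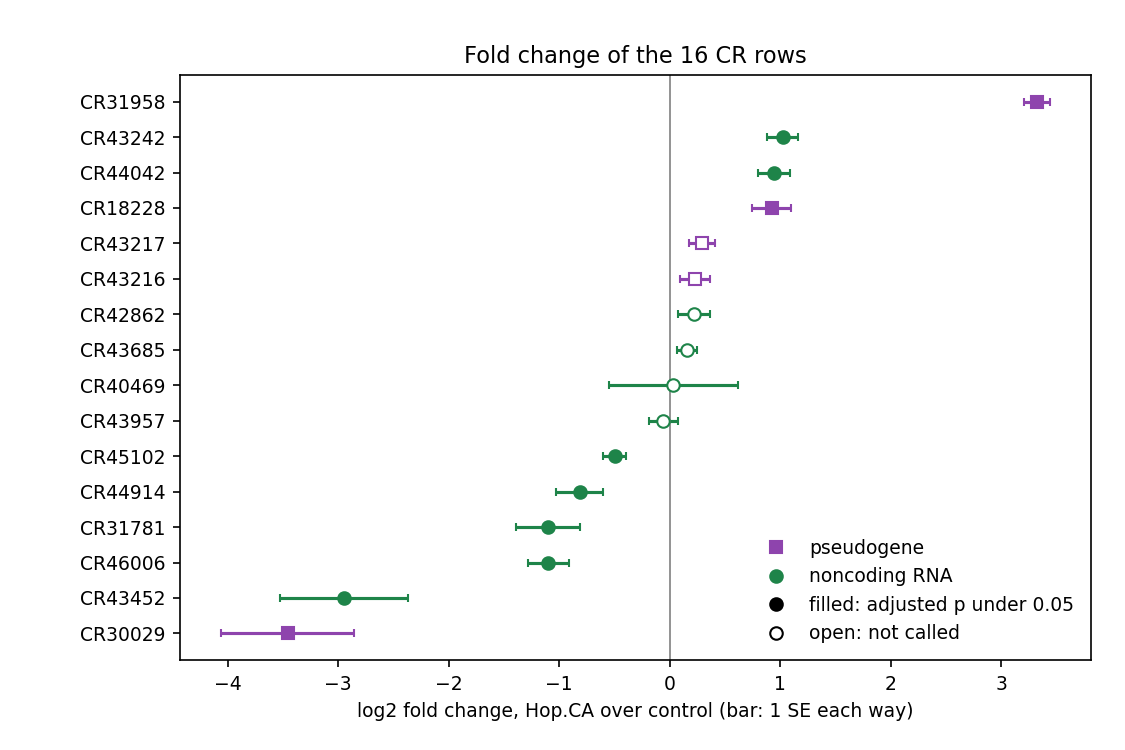
Log2 fold change of each of the 16 CR rows, Hop.CA over control, with 1 SE each way, squares for pseudogenes and circles for noncoding RNAs, filled where the adjusted p was under 0.05. CR31958 stands alone at 3.32, CR30029 and CR43452 at -3.46 and -2.95, and the widest bar among the open symbols is that of CR40469 (SE 0.581).

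Of the 10 called members, 5 had an adjacent or overlapping gene called in the same direction and 2 had 1 or both called in the opposite direction. 1 had a tested neighbour that was not called and 2 had no neighbour with enough reads. The 5 were CR31958, CR44042, CR43452, CR44914 and CR45102, and the 2 were CR18228 and CR43242. Each called member had up to 3 tested neighbours and 31.5% of all rows tested were called, so called neighbours are common in these data, and whether these counts exceed that was not tested.

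Noncoding RNA genes with a name of their own were read beside the CR rows. Of the 30 listed, 23 had a row and 14 were tested, of which 1 rose and 5 fell, with a median log2 fold change of -0.34. Uhg3 was the 1 that rose (log2 fold change 0.59 ± 0.0904, adjusted p = 0.00311). Uhg1 fell (-0.77 ± 0.121, adjusted p = 0.00336), as did every other called Uhg gene of the list. Uhg3 and Uhg1 host small nucleolar RNAs in their introns. roX1, a noncoding RNA of X-chromosome dosage compensation, did not pass (log2 fold change 0.02 ± 0.24, adjusted p = 0.951). Of the genes for the 8 core proteins of small nucleolar ribonucleoproteins, all tested, 5 fell and none rose. Of 13 genes of the RNA exosome and its helicases, the main machinery of nuclear RNA decay, 1 rose and none fell, and of 6 nonsense-mediated decay genes with a row of their own 1 rose and none fell. Beside these counts, 16.4% of all rows tested rose and 15.1% fell.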

How the data were processed

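RNA of 3 Hop.CA and 4 control trachea samples was sequenced from TruSeq stranded mRNA libraries, per the labels' protocols. The authors trimmed reads with cutadapt 1.8.1 and used build dm6, per the submitters' processing notes; for the aligner, the counting program and the use of strand, nothing is given in the sources used here. The authors deposited 1 gene table per library with raw read counts (total, unique, exon, exon-exon and intron reads), RPKM and TPM. Per the file headers, the deposited RPKM and TPM are normalised to length and depth; both were read only to see how rows without exons are listed. 1 blank row was left out of each table. The other columns hold gene and exon lengths, per the file headers.

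Total gene reads went into edgeR 4.0.16 (R 4.3.3): filterByExpr (minimum count 10, minimum total count 15; 9457 rows left), TMM scaling, and a robust quasi-likelihood fit with group as the only term. Calls used a Benjamini-Hochberg adjusted p under 0.05 over all rows tested. SE was taken as the size of the log2 fold change divided by the root of its F statistic. The fit was tested on simulated data. The p-values set the difference between groups against the spread between libraries within a group. They do not speak to the spread between single animals. No pair of libraries matched within sampling noise (lowest chi-square per degree of freedom 20.6). Positions come from the deposited tables and match an Ensembl annotation of dm6 coordinates; classes and exons come from that annotation. limma 3.58.1 (voom), DESeq2 1.42.0, other scalings, filters, unique reads, a replicate block and left-out libraries were the alternatives. The members and lists were chosen with earlier results of these data known. Named are all 16 members, the 3 CR rows next under the threshold, genes adjacent to or overlapping called members, and up to 3 genes of a list; adjacent genes of other members were chosen after their values were seen. No sequence was used here.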

Additional observations from a re-analysis of the deposited data

Results flagged for a closer look

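2 members had a control library far from the other 3 by Dixon's criterion, which chance meets in about 1 of 20 groups; Hop.CA, with 3 libraries, was not tested in this way. CR18228 was at 12.2 CPM in control replicate 2, against 19.1 to 19.9 CPM in the other controls. CR40469 was at 37.7 CPM in control replicate 1, against 7.05 to 11.99 CPM in the other controls.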

How the results depend on the processing

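The counts of 4 higher and 6 lower members were the same with scaling by library size only, RLE size factors, without a filter, with at least 1 CPM in 3 libraries, DESeq2, limma-voom, unique reads and without the 20 most abundant genes. Over all rows, 2711 to 3342 were called in these settings. At an adjusted p under 0.01 the members' counts were 4 and 4, with 1312 of all 9457 rows tested called. Leaving out 1 library gave 4 to 5 higher and 4 to 6 lower members and medians of 0.0077 to 0.14, with 1676 to 3407 of all rows called. Leaving out control replicate 2 and Hop.CA replicate 1 together gave 4 and 3. The median moved to 0.19 with limma-voom and to -0.017 with unique reads, where CR43216 and CR43217 drop out. At 500 reads, 31 members held 6 higher and 6 lower, against 16.4% and 15.1% of all rows tested. At 5000 reads, 3 members held 0 higher and 2 lower, with a median of -2.95. Exon reads gave no value, since no member has any. With the replicate block 3 members were higher and 2 lower, and the count over all rows was 938 in place of 2978. Deviations of same-numbered libraries from their group means had correlations of -0.186, -0.458 and -0.0661. The highest correlation between groups was 0.471, for Hop.CA replicate 1 and control replicate 2. Whether same-numbered libraries shared a batch was not tested. CR40469 changed sign without control replicate 2, 3 or 4 and without Hop.CA replicate 1 or 2 (lowest log2 fold change -0.22). Without control replicate 1 it was at 0.84, and without control replicate 2 and Hop.CA replicate 1 together at -0.18. CR43957 ranged from -0.12 to 0.033. The count over all rows was 1829 without Hop.CA replicate 1, 1676 without Hop.CA replicate 3 and 1573 without control replicate 2 and Hop.CA replicate 1. CR31781, CR45102 and CR44914 lost their calls without those 2 libraries (adjusted p 0.0595, 0.0665 and 0.111). The causes were not tested. Members with few reads limit precision: CR46006 had 75 to 111 reads per Hop.CA library.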
